A study of Mus musculus with 15 samples.

Results

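The mitochondrial ribosomal protein genes are the 78 genes, of 34432 in the deposited tables, whose symbol is Mrpl or Mrps followed by a number and at most 1 letter. The rule uses the symbol and no measured value, but the family was chosen with earlier results of these data known. Messenger RNA was measured by RNA-sequencing in 15 libraries of CT26 cells, an established mouse colon carcinoma line, in 5 groups of 3. In the first experiment, cells with a lentiviral, doxycycline-inducible hairpin against Prmt1 (shPrmt1, given DOX for 3 days) were compared with cells carrying a control hairpin (shControl), and whether the shControl cells were also given DOX is not stated in the labels. In the second experiment, wild-type CT26 cells were treated for 48 h with vehicle or with 6 µM of either MS023 or GSK3368715. PRMT1 is the main enzyme that places asymmetric dimethyl groups on arginine, and both compounds inhibit the type I PRMT family to which it belongs, so that the inhibitors are not selective for PRMT1 alone. The question for this gene family was whether its mRNAs changed when Prmt1 was depleted or the enzyme family inhibited. The hairpin cells were selected with puromycin, and nothing in the labels says that the 3 libraries of a group came from separate cultures, so the p-values measure the spread between these libraries, which may be technical.

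Mitochondria carry their own ribosome, which makes the few membrane proteins of the respiratory chain that mitochondrial DNA encodes. Its RNA comes from mitochondrial DNA, while all of its proteins are encoded in the nucleus, made in the cytosol and imported. Some of these proteins descend from the proteins of bacterial ribosomes, and others are found only in mitochondria. Of the 78 members, 26 belong to the small subunit, which decodes the mRNA, and 51 to the large subunit, which joins the amino acids, by the current assignment of the proteins. Mrps30 and Mrps18a are among the 51 although their symbols say small subunit, and the product of the remaining member, Mrps36, is a part of the oxoglutarate dehydrogenase complex and no ribosomal subunit.

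The members lie on 17 chromosomes of mm10, with 11 of them on chromosome 11 and 8 on chromosome 17, and the longest coding transcript of a member ranged from 463 bp (Mrpl52) to 7300 bp (Mrpl17), with a median of 1302 bp in the GENCODE M21 annotation. Values are normalized counts, that is gene counts divided by a size factor per library. The numbers of reads on genes ran from 17284091 to 29233738 per library in the knockdown experiment and from 40119305 to 93697833 in the inhibitor experiment. The tables of the experiments were normalized separately, so only fold changes, and no levels, are set side by side across them. All 78 members reached 10 normalized counts in 3 or more libraries of each experiment and were tested, among 11485 genes in the knockdown and 13014 in the inhibitor experiment. Prmt1, the targeted gene, fell to 12.5% of the shControl mean (adjusted p = 3.8e-07 by limma), and stood at 95% of the vehicle mean under MS023 and 99.2% under GSK3368715. Of the epithelial markers checked, Epcam was at 0 in all shControl and vehicle libraries and Krt18 at means of 572 and 941 normalized counts. The mesenchymal markers Vim, Fn1 and Col1a1 each had a mean above 2000 normalized counts in both control groups. Cd3e and Adgre1 of the leukocyte markers were at 0 in both.

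Levels of the members differed widely within a sample. Per kilobase of the longest coding transcript, which leaves a level too low where a shorter transcript is in use, the vehicle means ran from 315 normalized counts per kb (Mrps25) to 7103 per kb (Mrpl42), a 22.6-fold range around a median of 1298. The median of all genes tested was 536 per kb, and 73.2% of them lay below the members' median. Mrpl42 (7103 ± 440 per kb, SD, n = 3) and Mrps21 (6485 ± 547 per kb) were the highest 2 members, and Mrpl33 (5370 ± 379) and Mrpl30 (5360 ± 67.4) were next and differed by less than their SD. In the shControl group Mrpl42, Mrps21 and Mrps6 came first, at 2656 ± 64.7, 2438 ± 115 and 2218 ± 43.2 per kb, and Mrpl23 last at 90.9 ± 4.36 per kb. Together the members took 0.318%, 0.325% and 0.323% of all normalized counts with the control hairpin and 0.319%, 0.3% and 0.316% after knockdown. These shares overlapped between the groups.

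The plot of every member in every library gives the overall picture. In the knockdown, the mean log2 difference of the 78 members from the shControl mean was -0.075, -0.15 and -0.063 in the shPrmt1 libraries, where the shControl libraries stood at 0.0036, -0.0021 and -0.0016. Relative to vehicle it was -0.071, -0.14 and -0.12 under MS023 and -0.069, -0.066 and -0.044 under GSK3368715, while the vehicle libraries themselves stood at 0.050, 0.010 and -0.060. The MS023 libraries were thus all below the vehicle libraries in this mean, whereas GSK3368715 replicate 3 lay above vehicle replicate 3. The shifts were small, and most members stayed close to their controls.

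**Figure D1:**
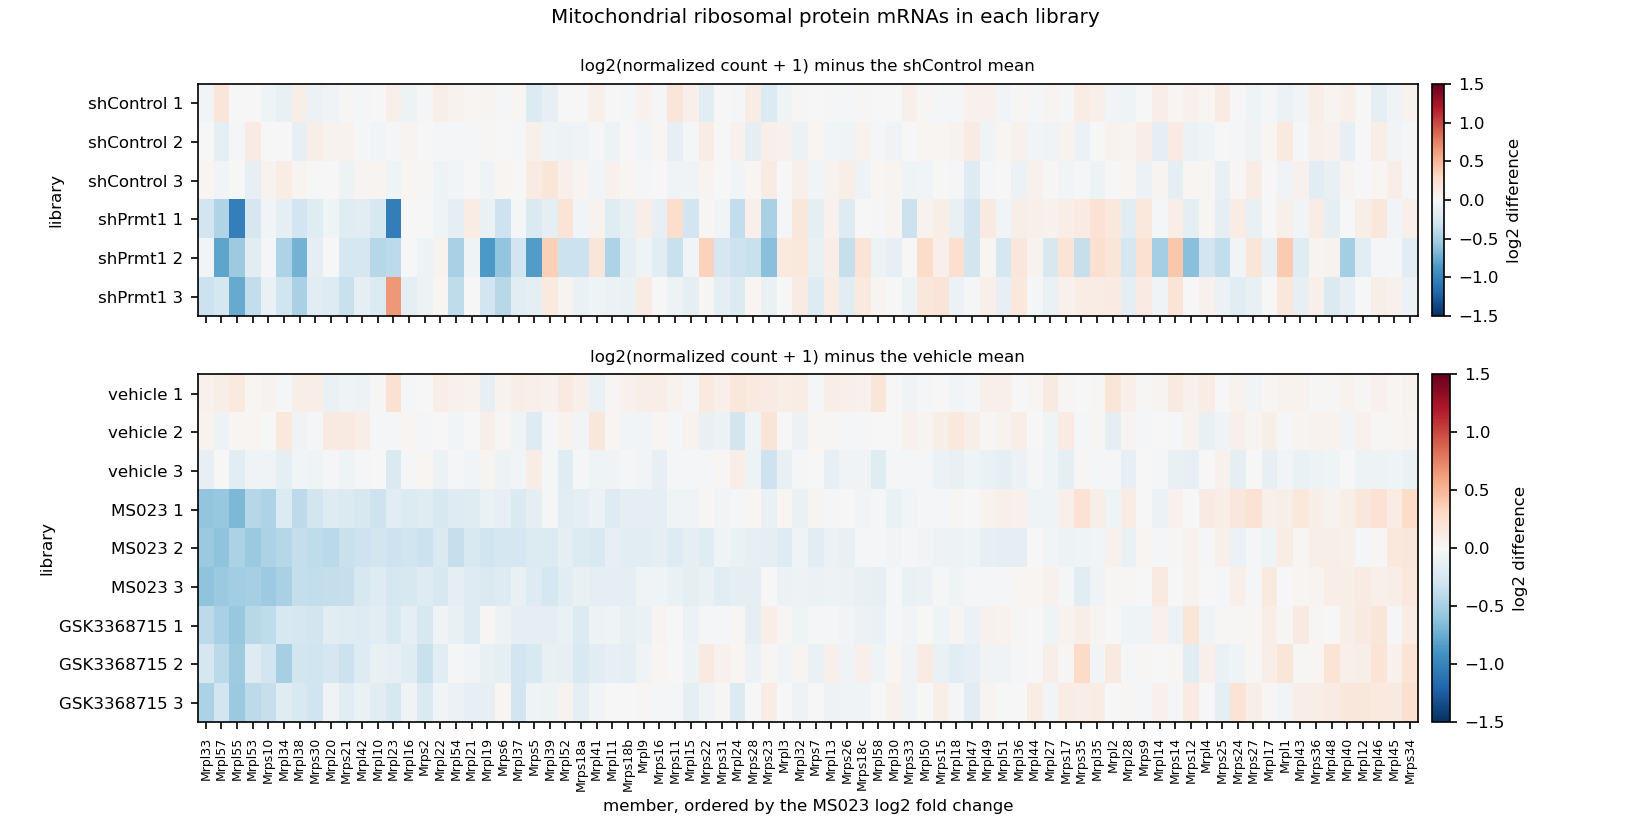
Each column is 1 of the 78 members and each row 1 library, with the colour giving log2(normalized count + 1) minus the mean of the control group of the same experiment (shControl above, vehicle below). Members are ordered by their MS023 log2 fold change, from -0.58 (Mrpl33) at the left to 0.20 (Mrps34) at the right, and the same members are blue at the left of the GSK3368715 rows.

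MS023 lowered a part of the family. Of the 78 members, 18 fell and 1 rose, where 14.1% of all genes tested were called lower and 13.7% higher, so that the share of members called lower (23.1%) stood above that of all genes and the share called higher (1 of 78) below it. An unadjusted p under 0.05 by limma, in either direction, was reached by 25 of 78 members and by 5237 of all 13014 genes tested, a larger share. Relative to the vehicle mean, Mrps6 fell by 12.6% and Mrpl33 fell by 33.4%, and the other 16 falls lay between these. The 18 comprised 4 members of the small subunit (Mrps2, Mrps6, Mrps10 and Mrps21) and 14 of the large subunit, including the misnamed Mrps30. The median log2 fold change of the members was -0.076, against 0.0028 for all genes tested, and 58 of 78 members had a value under 0. With libraries scaled to the same total the median was -0.041 and 49 lay under 0, and leaving out 1 library moved the median between -0.10 and -0.045 (the latter without vehicle replicate 1). In 25 members (32%) all MS023 libraries lay below all vehicle libraries, where this held for 22.1% of all genes tested.

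The largest falls were in Mrpl33, Mrpl57 and Mrpl55. Mrpl33 (ENSMUSG00000106918, chr5:31596935-31664384, plus strand) encodes the counterpart of bacterial ribosomal protein L33 and had 2679, 2664 and 2358 normalized counts in the vehicle libraries against 1706, 1736 and 1687 under MS023. The MS023 libraries lay close together and far below all vehicle libraries, at 66.6% of the vehicle mean (1709 ± 24.8 against 2567 ± 181, SD, n = 3; log2 fold change -0.58, SE 0.073, adjusted p = 0.00035 by limma). Mrpl57 (ENSMUSG00000021967, chr14:57826234-57829296, plus strand), a mitochondria-specific protein of the large subunit, had 989, 878 and 925 normalized counts under vehicle and 625, 610.3 and 634 under MS023. Again no MS023 library reached the lowest vehicle library, and the log2 fold change was -0.58 (SE 0.078, adjusted p = 0.00054). Mrpl55 (ENSMUSG00000036860, chr11:59202486-59206134, plus strand), the counterpart of bacterial L31 in the central protuberance, went from 459.5, 423 and 370.2 to 261, 299 and 289.6 normalized counts, a log2 fold change of -0.56 (SE 0.10, adjusted p = 0.0032). It was the lowest of the 3 in level, and its vehicle libraries were the most spread relative to their mean.

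Mrpl53 and Mrps10 followed. Mrpl53 (ENSMUSG00000030037, chr6:83109040-83109939, plus strand) encodes a mitochondria-specific protein next to the stalk of the large subunit and had 1738, 1727 and 1633 normalized counts under vehicle and 1265, 1152 and 1200.3 under MS023 (log2 fold change -0.50, SE 0.074, adjusted p = 0.00094). All of its exons are also covered by the read-through gene Gm42688 on the same strand, whose mean went the other way, from 216 to 272 normalized counts, and with both summed the log2 fold change of Mrpl53 was -0.37 (adjusted p = 0.002). Mrps10 (ENSMUSG00000034729, chr17:47368887-47381417, plus strand), the S10 protein in the head of the small subunit, had 4497, 4353 and 4184 normalized counts under vehicle and 3159, 3129 and 2974 under MS023. All MS023 libraries lay far below the vehicle libraries, and the adjusted p was the lowest of the 78 (log2 fold change -0.49, SE 0.053, adjusted p = 0.00016).

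Among the next members, Mrpl38 (ENSMUSG00000020775, chr11:116131817-116138868, minus strand), a mitochondria-specific protein of the central protuberance, had 2309, 2097 and 2120.1 normalized counts under vehicle and 1654, 1699 and 1699 under MS023 (log2 fold change -0.37, SE 0.057, adjusted p = 0.0012). Mrps30 (ENSMUSG00000021731, chr13:118378381-118387252, minus strand), a mitochondria-specific protein of the large subunit, had 2772, 2540.4 and 2483 against 2145, 1989.5 and 2007 (log2 fold change -0.34, SE 0.060, adjusted p = 0.0022), and 623 bp of its exons are shared with B430218F22Rik on the opposite strand. The groups did not overlap in either member. The other 5 of the 12 largest falls were in Mrpl34, Mrpl20, Mrps21, Mrpl42 and Mrpl10, with log2 fold changes from -0.38 (Mrpl34) to -0.26 (Mrpl10). Mrpl34, Mrpl20 and Mrps21 are counterparts of the bacterial L34, L20 and S21 proteins, Mrpl42 is mitochondria-specific, and Mrpl10 is the base of the stalk on which translation factors dock. Mrpl42 was at 4731 ± 293 normalized counts under vehicle and 3934 ± 119 under MS023 (SD, n = 3). Mrpl16, Mrps2, Mrpl22, Mrpl54, Mrpl21 and Mrps6 completed the 18, with log2 fold changes from -0.25 (Mrpl16) to -0.19 (Mrps6).

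The only member called higher was Mrps34, a mitochondria-specific protein of the small subunit, with 1646, 1637 and 1486 normalized counts under vehicle and 1929, 1784 and 1769.9 under MS023 (log2 fold change 0.20, SE 0.067, adjusted p = 0.046). The lowest MS023 library lay above the highest vehicle library. The call was lost in 11 of 21 alternatives, among them leaving out single libraries (lost without vehicle replicate 2, 3, MS023 replicate 1, 2, 3, GSK3368715 replicate 2 or 3, with an adjusted p up to 0.16 and log2 fold changes from 0.15 to 0.23). Mrps34 shares 763 bp of exon with Nme3 on the same strand and 1309 bp with Mapk8ip3 on the opposite strand, and the strand setting of the counting is not given in the sources used here.

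Parts of the ribosome did not move as wholes. Of the 4 proteins at the stalk, Mrpl10 and Mrpl53 fell, Mrpl11 had a log2 fold change of -0.15 (SE 0.057, adjusted p = 0.076) and Mrpl12, which binds the elongation factors, one of 0.087 (SE 0.064, adjusted p = 0.34). The decoding protein Mrps12 (0.032, SE 0.10) and the conserved small-subunit proteins Mrps7 (-0.074, SE 0.064), Mrps15 (-0.046, SE 0.070) and Mrps16 (-0.12, SE 0.068) were not called, with adjusted p-values from 0.21 to 0.84. At the exit of the peptide tunnel, Mrpl22 fell, while Mrpl45, which ties the ribosome to the inner membrane, had a log2 fold change of 0.12 (SE 0.058, adjusted p = 0.15) and its neighbour Mrpl23 one of -0.25 (SE 0.13, adjusted p = 0.17). Mrpl44 (-0.015), Mrpl58, which also releases stalled peptides (-0.057), Mrps22 (-0.089) and Mrps36 (0.078) had log2 fold changes under 0.1 in size and were not called. The paralogs Mrps18a, Mrps18b and Mrps18c had log2 fold changes of -0.15, -0.15 and -0.057, and the MS023 libraries of Mrps18a and Mrps18b lay below all vehicle libraries although neither passed the test (adjusted p = 0.091 and 0.073).

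In the group of 30 large-subunit members with bacterial homologues 8 fell, of 21 mitochondria-specific large-subunit members 6 fell, of 16 small-subunit members with bacterial homologues 4 fell, and of 10 mitochondria-specific small-subunit members none fell and Mrps34 rose, where 14.1% of all genes tested were called lower. Whether the 4 groups differ was not tested. The medians of these 4 groups were -0.080, -0.15, -0.095 and -0.057. Members called lower under MS023 had shorter transcripts, with a median of 893 bp against 1411 bp for the other members. The medians were 1262 and 1302 bp under GSK3368715 and 940 and 1316 bp in the knockdown. In the class under 1000 bp, the 25 members had a median log2 fold change of -0.15 under MS023. The 1083 tested genes of this length had a median of -0.050. The 28 members from 1000 to under 2000 bp stood at -0.070 and the 25 members of 2000 bp or more at -0.057, against -0.00070 and 0.0092 for all genes tested of these lengths. The part of transcript length in the falls was not tested.

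**Figure D2:**
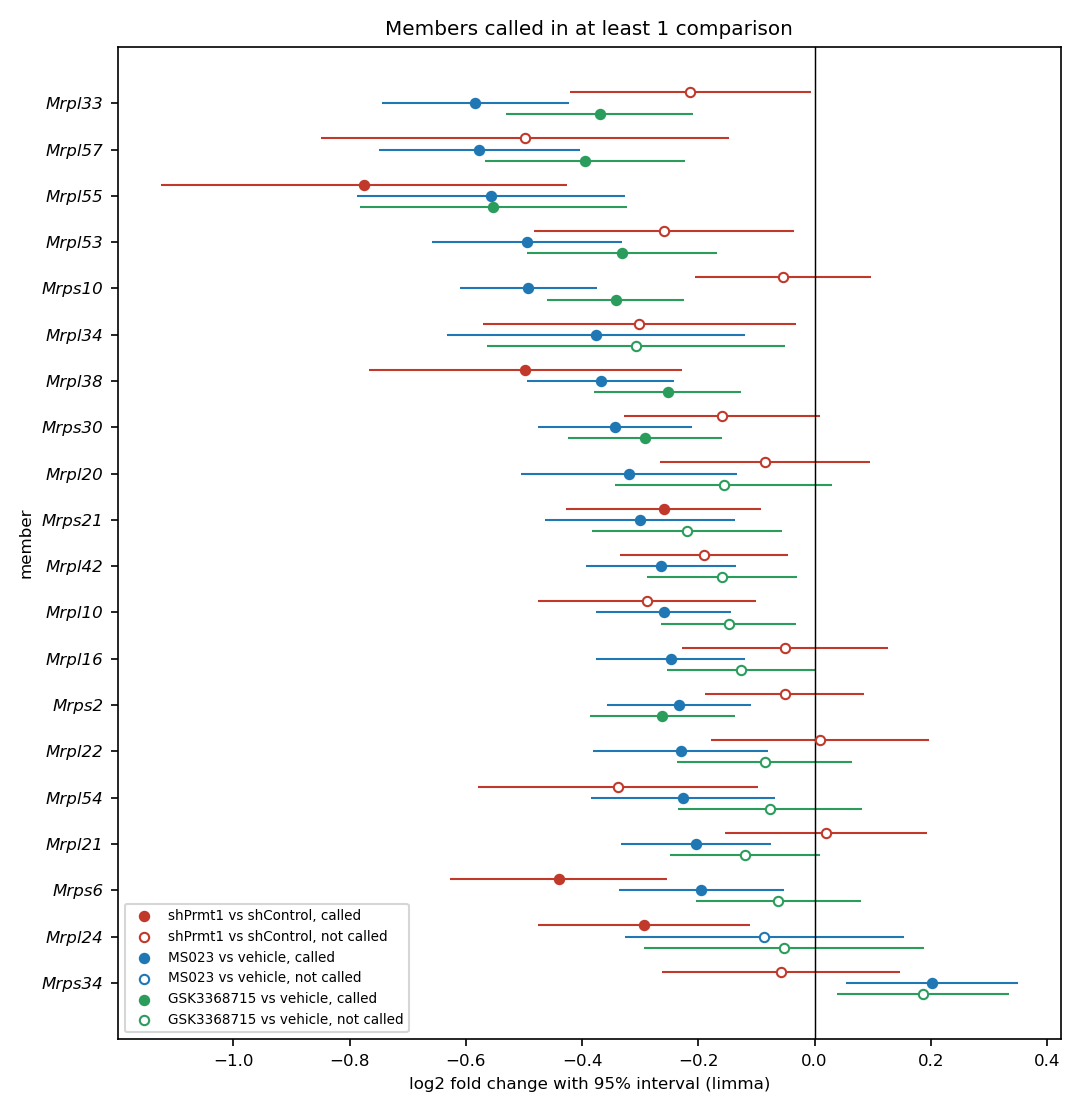
Points are log2 fold changes and lines their 95% intervals from limma for the 20 members called in at least 1 comparison, with filled points for calls at an adjusted p under 0.05 and open points for values not called. Under MS023 the values run from -0.58 (Mrpl33) to 0.20 (Mrps34), and Mrpl55 and Mrpl38 are the members with 3 filled points.

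The promoters of the 5 members with the largest falls under MS023, which fell under GSK3368715 too, are shown because nuclear respiratory factor 1 (NRF1), the ETS factor GABP and YY1 are known regulators of mitochondrial genes. They are RefSeq sequences of GRCm38.p6, the build of mm10, from 250 bases before to 50 after the RefSeq start of the gene, read 5′ to 3′ on the gene's strand, with motif matches in capitals. The motifs searched on both strands were GCGCATGCG (NRF1), CCGGAAG (ETS), ATGGCGGC (YY1), CACGTG (E-box) and CCAAT. The windows are chr5:31613701-31614000 on the plus strand for Mrpl33, chr14:57825989-57826288 on the plus strand for Mrpl57, chr11:59202236-59202535 on the plus strand for Mrpl55, chr6:83108858-83109157 on the plus strand for Mrpl53 and chr17:47368947-47369246 on the plus strand for Mrps10. The windows of Mrpl33 and Mrps10 lie inside the GENCODE spans of these genes, which begin upstream of the RefSeq start, in Mrpl33 with non-coding transcripts.
Mrpl33: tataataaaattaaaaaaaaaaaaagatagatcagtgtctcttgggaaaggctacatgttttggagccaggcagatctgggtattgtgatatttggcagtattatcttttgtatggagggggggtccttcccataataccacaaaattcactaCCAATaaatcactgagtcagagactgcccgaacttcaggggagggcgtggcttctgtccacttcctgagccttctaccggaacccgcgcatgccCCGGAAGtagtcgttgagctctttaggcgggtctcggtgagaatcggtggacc
Mrpl57: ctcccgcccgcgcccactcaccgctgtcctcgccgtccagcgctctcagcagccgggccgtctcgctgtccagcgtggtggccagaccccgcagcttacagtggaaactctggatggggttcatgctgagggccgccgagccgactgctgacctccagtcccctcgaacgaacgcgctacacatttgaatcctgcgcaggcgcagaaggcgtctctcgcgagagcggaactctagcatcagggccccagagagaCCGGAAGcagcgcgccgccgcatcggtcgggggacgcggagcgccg
Mrpl55: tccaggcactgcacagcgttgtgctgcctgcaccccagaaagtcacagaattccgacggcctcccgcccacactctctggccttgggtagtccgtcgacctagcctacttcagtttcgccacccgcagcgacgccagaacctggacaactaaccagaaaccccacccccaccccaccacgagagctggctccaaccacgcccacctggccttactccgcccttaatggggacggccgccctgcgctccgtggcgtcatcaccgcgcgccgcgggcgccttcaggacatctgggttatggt
Mrpl53: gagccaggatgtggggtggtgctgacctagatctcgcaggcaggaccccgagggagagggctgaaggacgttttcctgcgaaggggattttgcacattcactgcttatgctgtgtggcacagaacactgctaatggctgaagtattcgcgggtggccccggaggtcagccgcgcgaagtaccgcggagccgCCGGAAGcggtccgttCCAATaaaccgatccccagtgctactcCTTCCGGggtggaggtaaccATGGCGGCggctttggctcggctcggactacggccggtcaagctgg
Mrps10: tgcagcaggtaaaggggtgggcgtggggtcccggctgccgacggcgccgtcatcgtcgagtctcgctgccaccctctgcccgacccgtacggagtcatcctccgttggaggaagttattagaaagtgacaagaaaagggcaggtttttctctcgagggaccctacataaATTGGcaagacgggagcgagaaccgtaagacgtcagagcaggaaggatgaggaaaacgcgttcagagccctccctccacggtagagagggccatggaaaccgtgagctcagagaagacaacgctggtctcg
The capitals mark an ETS match and a CCAAT match in Mrpl33, an ETS match in Mrpl57, a pair of ETS matches, a CCAAT match and a YY1 match in Mrpl53, and a CCAAT match on the reverse strand (ATTGG) in Mrps10. The window of Mrpl55 held none of the 5 motifs, and nor did that of Mrps2. A promoter was found for 69 of the 78 members. The ETS letters were present in 26 of these 69 (37.7%), in 20.4% of 9630 other tested genes and in 9.93% of all 27025 promoters. The YY1 letters were in 12 of 69 (17.4%, against 5.75% of other tested genes and 2.6% of all promoters) and the NRF1 letters in 7 of 69 (10.1%, against 4.15% and 1.95%). The E-box was in 7.25% of the members (11.5% and 8.09%) and CCAAT in 39.1% (43.9% and 41.1%). Of the 16 members called lower under MS023 that had a promoter, 7 held the ETS letters, 3 the YY1 letters and 2 the NRF1 letters, and of the 52 with a promoter that were called in no comparison, 19, 9 and 5 did.

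GSK3368715 lowered 8 members and raised none, where 4.47% of all genes tested were called lower and 5.16% higher, so that the share of members called lower (10.3%) was above that of all genes. At an unadjusted p under 0.05 there were 16 of 78 members, where 3393 of all 13014 genes tested passed, a larger share. edgeR and DESeq2 called 8 and 9 members lower and none higher. The 8 were Mrpl55, Mrpl57, Mrpl33, Mrps10, Mrpl53, Mrps30, Mrps2 and Mrpl38, and the comparison uses the same vehicle libraries as MS023, so the 8 do not add independent evidence to the MS023 values. The median log2 fold change of all members was -0.036, against 0.00042 for all genes, and 50 of 78 lay under 0. Leaving out 1 library moved the median between -0.065 and 0.0049, with the sign turned without vehicle replicate 1. Groups did not overlap, with GSK3368715 below, in 18 members (23.1%), where 14.1% of all genes tested did so.

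Mrpl55 showed the largest fall, to 279.8, 288 and 283 normalized counts (log2 fold change -0.55, SE 0.10, adjusted p = 0.01). These values lay within the range of its MS023 libraries. Mrpl57 had 662, 701 and 759.9 normalized counts (log2 fold change -0.40, SE 0.078, adjusted p = 0.012) and Mrpl33 had 1959, 2154 and 1847 (log2 fold change -0.37, SE 0.073, adjusted p = 0.012). In both, all GSK3368715 libraries lay between the MS023 and the vehicle libraries. Mrps10 had 3323, 3550.2 and 3407 (log2 fold change -0.34, SE 0.053, adjusted p = 0.0043), again between the other groups. Mrps2, the S2 protein of the small subunit, had 4812, 4732 and 4908 normalized counts under vehicle, 4253, 3847 and 4207 under MS023 and 4085, 3835 and 4139 under GSK3368715 (log2 fold change -0.26, SE 0.056, adjusted p = 0.017), so that both treated groups were below vehicle and overlapped each other. Mrpl53, Mrps30 and Mrpl38 had log2 fold changes of -0.33, -0.29 and -0.25 (SE 0.074, 0.060 and 0.057).

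Of the members named for their role, Mrpl12 had a log2 fold change of 0.13 (SE 0.064, adjusted p = 0.21) and Mrps34 one of 0.19 (SE 0.067, adjusted p = 0.11), and in both all GSK3368715 libraries lay above all vehicle libraries without a call. Mrpl10, at 2581, 2652 and 2552 normalized counts against 2919.6, 2832 and 2873 under vehicle, missed the threshold (log2 fold change -0.15, adjusted p = 0.1), as did Mrps18a (-0.19, adjusted p = 0.083). Mrpl23 had a log2 fold change of -0.20, Mrps18b of -0.087, Mrpl11 of -0.066 and Mrpl45 of 0.052. Mrpl58, Mrps7, Mrps12, Mrps36, Mrpl44, Mrps18c, Mrps15, Mrps22 and Mrps16 had log2 fold changes between -0.053 (Mrpl58) and 0.048 (Mrps36).

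Under MS023, 10 of the 19 calls held in each of the 21 alternative fits at the same threshold (Mrpl10, Mrpl16, Mrpl33, Mrpl38, Mrpl42, Mrpl53, Mrpl55, Mrpl57, Mrps10 and Mrps30), and under GSK3368715 5 of 8 did (Mrpl33, Mrpl55, Mrpl57, Mrps10 and Mrps30). Without MS023 replicate 2, 10 members were called under MS023, and without replicate 3, 12. On leaving out 1 library, other calls were lost, those of Mrpl20 (lost without vehicle replicate 2, MS023 replicate 2 or 3, with an adjusted p up to 0.071 and log2 fold changes from -0.38 to -0.25), Mrpl34 (lost without vehicle replicate 1, 2, MS023 replicate 2 or 3, with an adjusted p up to 0.12 and log2 fold changes from -0.46 to -0.30) and Mrps21 (lost without MS023 replicate 2 or 3, with an adjusted p up to 0.051 and log2 fold changes from -0.34 to -0.23) under MS023. Mrpl21, Mrpl22, Mrpl54, Mrps2 and Mrps6 also lost their MS023 call in at least 1 alternative. Under GSK3368715 such calls were those of Mrpl38 (lost without vehicle replicate 1, 3, GSK3368715 replicate 1 or 2, with an adjusted p up to 0.058 and log2 fold changes from -0.28 to -0.21), Mrpl53 (lost without GSK3368715 replicate 1 or 3, with an adjusted p up to 0.069 and log2 fold changes from -0.40 to -0.29) and Mrps2 (lost without vehicle replicate 3 or GSK3368715 replicate 2, with an adjusted p up to 0.066 and log2 fold changes from -0.28 to -0.23). Vehicle replicate 2 and GSK3368715 replicate 3 stood apart in mitochondrially encoded mRNA, which took 1.37% and 1.07% of their normalized counts against 2.76% and 2.67% in the other vehicle libraries and 1.99% to 2.62% under MS023. Without vehicle replicate 2 there were 15 members called under MS023 and 9 under GSK3368715, and without GSK3368715 replicate 3 there were 7 under GSK3368715.

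**Figure D3:**
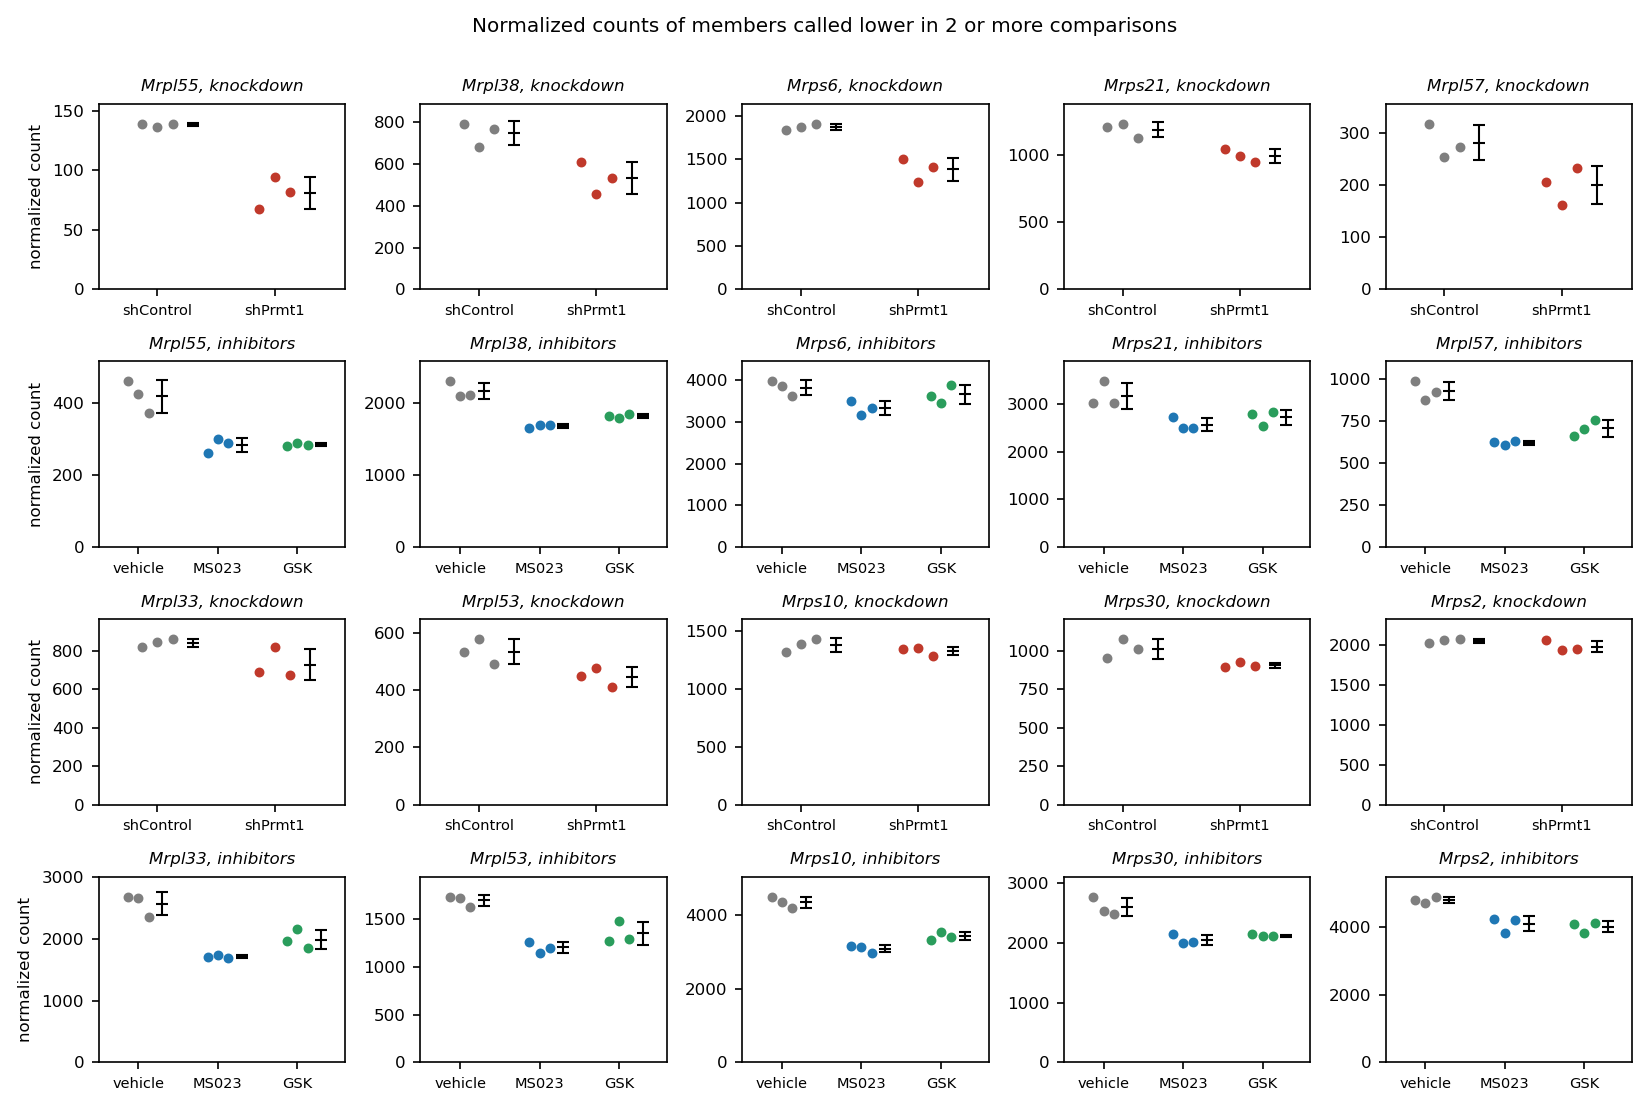
Normalized counts of 10 members called lower in at least 2 comparisons, with 1 point per library and the mean and SD (n = 3) beside each group, shown for the knockdown (upper panel of each pair) and the inhibitors (lower panel) on axes that start at 0. In the inhibitor panels of Mrpl33, Mrpl57 and Mrps10 the GSK3368715 points sit between the vehicle and the MS023 points, and in Mrpl55 all treated points lie between 261 and 299, below the vehicle points.

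The compounds, given at the same concentration and for the same time, were compared directly in 78 tests, 1 per member, within the adjustment over all 13014 genes. No member was called by limma (0.515% of all genes tested were called in either direction). An unadjusted p under 0.05 was reached by 3 of 78 members and by 1722 of all 13014 genes tested, a larger share. edgeR and DESeq2 on the recovered reads called none either. Those 3 were Mrpl33, whose GSK3368715 level exceeded its MS023 level by 0.21 on the log2 scale (95% interval 0.053 to 0.37, adjusted p = 0.25), Mrps10 (0.15, interval 0.033 to 0.27, adjusted p = 0.26) and Mrpl57 (0.18, interval 0.0092 to 0.35, adjusted p = 0.35). In all 3, every GSK3368715 library lay above every MS023 library. For Mrpl55 the difference was 0.0035 (interval -0.23 to 0.23), and for Mrps34 -0.015 (interval -0.16 to 0.13). Over the family, 62 of 78 members had the higher value under GSK3368715 (51 with libraries scaled to the same total), with a median difference of 0.047. Of all genes tested, 6689 of 13014 did, with a median of 0.0046. The shift was not particular to this family. It was seen in 70 of 77 cytosolic ribosomal protein genes (median 0.077) and 65 of 77 nuclear oxidative phosphorylation genes (median 0.053). The 95% intervals of all 78 differences lay between -0.27 and 0.40, so that a difference between the compounds is neither shown nor bounded closely for a single member.

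In the knockdown, 5 members fell and none rose, which is 6.41% of the family, where 7.17% of all genes tested were called lower and 7.5% higher. The share called lower was thus near the background. edgeR and DESeq2 called 6 and 8 members lower and none higher. At an unadjusted p under 0.05 there were 18 of 78 members, where 3580 of all 11485 genes tested passed, a larger share. The 5 were Mrpl55, Mrpl38, Mrps6, Mrpl24 and Mrps21. The median of the members was -0.072 against -0.0036 for all genes, with 54 of 78 under 0 (-0.040 and 47 of 78 with libraries scaled to the same total). The groups did not overlap, with shPrmt1 below, in 22 members (28.2%), where 18.9% of all genes tested did so. The median SE of a member was 0.084 here and 0.068 in the inhibitor experiment, which had more reads and a fit over 9 libraries.

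Mrpl55 had 139, 137 and 139 normalized counts with the control hairpin and 67.4, 94.5 and 81.7 after knockdown. The shControl values were nearly equal and all shPrmt1 values lay far below them, at 58.7% of the shControl mean (81.2 ± 13.6 against 138 ± 1.4, SD, n = 3; log2 fold change -0.78, SE 0.15, adjusted p = 0.013 by limma). Mrpl38 had 793, 683 and 766 against 609, 455 and 531 (log2 fold change -0.50, SE 0.12, adjusted p = 0.026), and the lowest of the shPrmt1 values was in replicate 2. Mrps6 (ENSMUSG00000039680, chr16:92058270-92112227, plus strand), the S6 protein of the small subunit, had 1841, 1874 and 1914 against 1509, 1244 and 1408 (log2 fold change -0.44, SE 0.081, adjusted p = 0.01). Its groups were clearly apart. Of its exons, 159 bp are shared with Slc5a3 on the same strand, which went from 3092 to 1881 normalized counts. The sum of both genes, in which Slc5a3 had the larger counts, had a log2 fold change of -0.60, against -0.44 for Mrps6 alone.

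Mrpl24 (ENSMUSG00000019710, chr3:87919506-87923672, plus strand), the L24 protein near the exit of the peptide tunnel, had 663, 705 and 655 normalized counts against 522, 544 and 584 (log2 fold change -0.29, SE 0.080, adjusted p = 0.044), with 594 bp of exon shared with Rrnad1 on the opposite strand. Mrps21 (ENSMUSG00000054312, chr3:95862634-95871519, minus strand) had 1208, 1235 and 1127 against 1045, 990.3 and 946 (log2 fold change -0.26, SE 0.073, adjusted p = 0.049). Both were close to the threshold. Mrpl10, at 902, 871 and 923 against 760.2, 670.3 and 782, lay just outside it (log2 fold change -0.29, adjusted p = 0.051). Mrpl57, which fell under both inhibitors, had 319, 254 and 273 against 206, 162 and 234 (log2 fold change -0.50, SE 0.15, adjusted p = 0.064). The groups did not overlap in either.

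Among the members named for their role, the other stalk members Mrpl11 (-0.24, SE 0.10), Mrpl53 (-0.26, SE 0.098) and Mrpl12 (-0.025, SE 0.078) were not called, and the median of the 4 stalk members was -0.25, with all 4 under 0 except Mrpl12 when libraries were scaled to the same total (0.0075). Mrps12 had a log2 fold change of -0.25 (SE 0.16), Mrps7 of -0.15, Mrps16 of -0.097, Mrps18a of -0.16 and Mrps18b of -0.12. Mrps15, Mrps22, Mrps18c and Mrps36 had values above 0 (0.12, 0.12, 0.11 and 0.081), and Mrpl44, Mrpl58, Mrps34 and Mrpl45 lay between -0.058 (Mrps34) and 0.034 (Mrpl44). Mrpl23 had 70.4, 66.2 and 64.1 normalized counts with the control hairpin and 32, 50.9 and 105 after knockdown (log2 fold change -0.26, SE 0.37). The highest and the lowest of these 6 values were both in shPrmt1 libraries. The processed pseudogene Mrpl23-ps1 matches 68.9% of the Mrpl23 transcript without a mismatch and was listed at means of 265 and 295, and with both summed the log2 fold change was 0.11 (adjusted p = 0.43).

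The knockdown calls did not hold with fewer libraries, while the fold changes kept their direction. Without shControl replicate 3 no member was called, without shControl replicate 1 only Mrps6 was, without shControl replicate 2 there were 2, and without shPrmt1 replicate 2 there were 9. By member, the call of Mrpl55 was lost without shControl replicate 1, 2 or 3, with an adjusted p up to 0.061 and log2 fold changes from -0.89 to -0.65. That of Mrpl38 was lost without shControl replicate 1, 3 or shPrmt1 replicate 3, with an adjusted p up to 0.11 and log2 fold changes from -0.60 to -0.39. That of Mrps6 was lost without shControl replicate 3, with an adjusted p up to 0.052 and log2 fold changes from -0.50 to -0.36. Those of Mrpl24 (lost without shControl replicate 1, 2, 3, shPrmt1 replicate 1 or 3, with an adjusted p up to 0.14 and log2 fold changes from -0.34 to -0.26) and Mrps21 (lost without shControl replicate 1, 2, 3, shPrmt1 replicate 1 or 3, with an adjusted p up to 0.17 and log2 fold changes from -0.30 to -0.22) were lost most often.

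Mrpl55 and Mrpl38 were called lower in all 3 comparisons. The knockdown and the inhibitor experiment have separate controls, so their values can be set against each other. Of the 5 members called lower in the knockdown, 4 were among the 18 called lower under MS023 and 2 among the 8 called lower under GSK3368715. These counts rest on 5 members. The same overlap was not counted over all genes, so the counts are not read as a trait of this family. Mrpl24 was the exception, with log2 fold changes of -0.087 and -0.053 under the inhibitors (SE 0.11 in both) and vehicle libraries that ranged from 1901 to 2584 normalized counts. Across the 78 members the log2 fold changes in the knockdown and under MS023 gave r = 0.539 (Pearson) and rho = 0.461 (Spearman), and across the 11471 genes tested in both experiments r was 0.529. With GSK3368715 the values were 0.54 for the members and 0.479 for all genes. The knockdown and MS023 changes had the same sign in 59% of members and 65.7% of all genes. For GSK3368715 these shares were 61.5% and 65.8%. The likeness within the family was thus about that of genes at large, the points share libraries, and genes are not independent replicates.

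**Figure D4:**
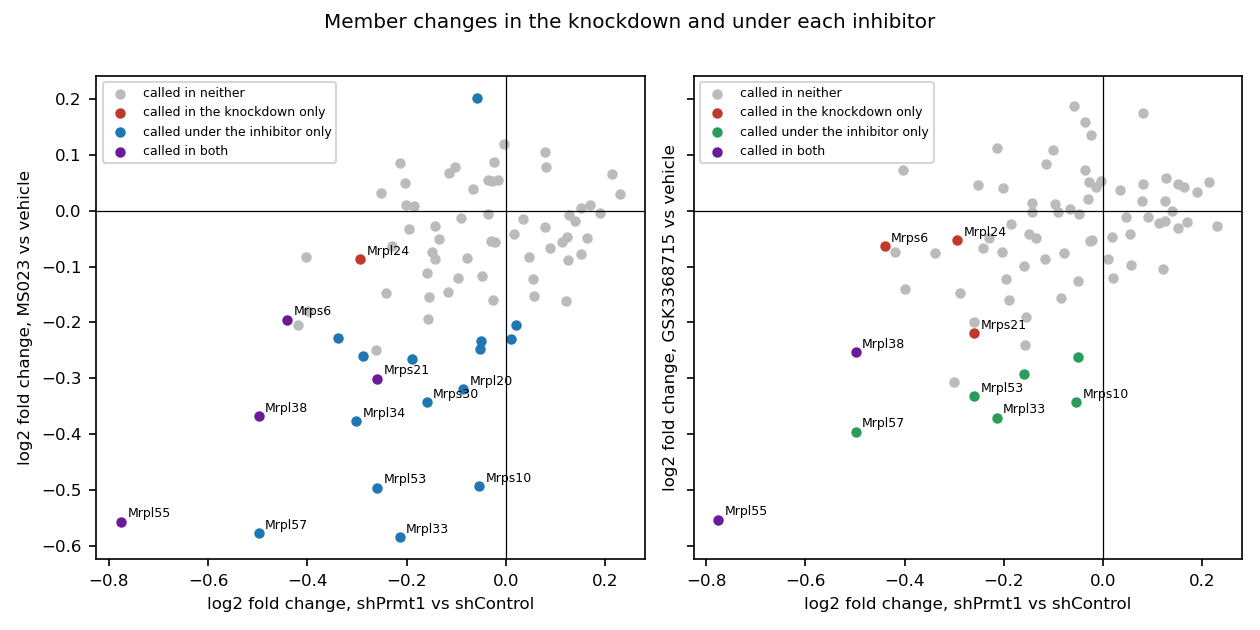
Each point is 1 of the 78 members, with its log2 fold change in the knockdown on the x axis and under MS023 (left) or GSK3368715 (right) on the y axis, coloured by where it was called. Mrpl55 lies farthest to the lower left in both panels (-0.78 in the knockdown, -0.56 and -0.55 under the inhibitors), and Mrps10 fell under the inhibitors (-0.49 and -0.34) with a knockdown value of -0.054.

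The proteins that work with the mitochondrial ribosome were followed through lists written by hand. Of the 5 mitoribosomal proteins with other symbols, Ptcd3, which sits in the small subunit and carries PPR repeats, fell in all 3 comparisons, with log2 fold changes of -0.32 in the knockdown (adjusted p = 0.033), -0.42 under MS023 (adjusted p = 0.002) and -0.27 under GSK3368715 (adjusted p = 0.039). Its normalized counts were 7902, 8042 and 7658 under vehicle, 6154, 6084 and 5412 under MS023 and 6878, 6828 and 5876 under GSK3368715. Leaving out 1 library ended the call in the knockdown (lost without shControl replicate 1, 2, 3, shPrmt1 replicate 1 or 3, with an adjusted p up to 0.12 and log2 fold changes from -0.40 to -0.26) and under GSK3368715 (lost without vehicle replicate 1, 2, 3, MS023 replicate 1, 2, GSK3368715 replicate 1, 2 or 3, with an adjusted p up to 0.11 and log2 fold changes from -0.31 to -0.20), and not under MS023. Gadd45gip1 had log2 fold changes of -0.42, -0.14 and -0.15, Aurkaip1 of 0.032, 0.14 and 0.15, Chchd1 of 0.00022, 0.036 and 0.070, and Dap3, the GTP-binding protein of the small subunit, of -0.0059, 0.057 and 0.011, none of them called by limma with all libraries. Gadd45gip1 was called in the knockdown with the replicate number as a block, and Aurkaip1 was called higher under MS023 without vehicle replicate 1 or with libraries scaled to the same total.

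The mitochondrial aminoacyl-tRNA synthetases charge the mitochondrial tRNAs with amino acids. Of 17 tested, 3 fell in the knockdown, where 7.17% of all genes tested did. Under MS023 8 fell and 2 rose, where 14.1% and 13.7% of all genes tested did. The medians in the knockdown, under MS023 and under GSK3368715 were 0.0088, -0.26 and -0.11. Among those called, Ears2 fell in the knockdown (-0.67) and under MS023 (-0.61), Tars2 in the knockdown (-0.49) and Vars2 under MS023 (-0.73), whereas Hars2 (0.39) and Aars2 (0.22) rose under MS023. On leaving out 1 library, calls were lost for Ears2 (lost without shControl replicate 1, 2 or 3, with an adjusted p up to 0.093 and log2 fold changes from -0.76 to -0.52) and Tars2 (lost without shControl replicate 1, 2 or 3, with an adjusted p up to 0.084 and log2 fold changes from -0.58 to -0.36) in the knockdown and for Hars2 (lost without vehicle replicate 1, 2, 3, MS023 replicate 1, 2 or 3, with an adjusted p up to 0.092 and log2 fold changes from 0.36 to 0.41) and Aars2 (lost without vehicle replicate 2, 3, MS023 replicate 1, 2, 3, GSK3368715 replicate 1 or 3, with an adjusted p up to 0.14 and log2 fold changes from 0.16 to 0.29) under MS023.

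Of the 15 translation factors, 4 fell in the knockdown, 5 under MS023 and 2 under GSK3368715, and none rose. In the same order, 7.17%, 14.1% and 4.47% of all genes tested were called lower and 7.5%, 13.7% and 5.16% higher. Taco1, an activator of mitochondrial Co1 translation, fell in the knockdown (-0.55, adjusted p = 0.013) and under MS023 (-0.68, adjusted p = 0.00073), from 502, 505 and 467 to 332, 291 and 294 normalized counts. Gfm2, which takes part in recycling the ribosome, fell in all 3 (-0.39, -0.35 and -0.35). Mtif3, an initiation factor, fell in the knockdown (-0.49), the elongation factor Gfm1 under MS023 (-0.29) and the mRNA-binding Lrpprc under GSK3368715 (-0.22). On leaving out 1 library, calls were lost in the knockdown for Taco1 (lost without shControl replicate 1 or 3, with an adjusted p up to 0.073 and log2 fold changes from -0.59 to -0.51), Mtif3 (lost without shControl replicate 1, 3 or shPrmt1 replicate 3, with an adjusted p up to 0.096 and log2 fold changes from -0.57 to -0.40) and Gfm2 (lost without shControl replicate 1, 2, 3, shPrmt1 replicate 1 or 3, with an adjusted p up to 0.13 and log2 fold changes from -0.48 to -0.31). The same held for Gfm2 (lost without vehicle replicate 2, 3 or MS023 replicate 3, with an adjusted p up to 0.079 and log2 fold changes from -0.43 to -0.27) and Gfm1 (lost without MS023 replicate 2 or 3, with an adjusted p up to 0.065 and log2 fold changes from -0.33 to -0.22) under MS023, and for Gfm2 (lost without vehicle replicate 2, 3, MS023 replicate 1, 2, GSK3368715 replicate 1, 2 or 3, with an adjusted p up to 0.12 and log2 fold changes from -0.43 to -0.29) and Lrpprc (lost without GSK3368715 replicate 1 or 3, with an adjusted p up to 0.057 and log2 fold changes from -0.24 to -0.19) under GSK3368715.

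Of 26 assembly factors, 25 were tested in the knockdown and none was called there. An unadjusted p under 0.05 was reached by 5, against 3580 of all 11485 genes tested. Under MS023 5 of 26 fell and 1 rose, where 14.1% of all genes tested were called lower and 13.7% higher. Under GSK3368715 none was called. An unadjusted p under 0.05 was reached there by 5, against 3393 of all 13014 genes tested. edgeR and DESeq2 called none in the knockdown or under GSK3368715 either. The falls included Tfb1m, the methyltransferase of the small-subunit RNA, at 903, 760.1 and 859 normalized counts under vehicle and 545, 549 and 518 under MS023 (-0.64, adjusted p = 0.0009), and the GTPase Mtg1 (-0.57, adjusted p = 0.0065). Gtpbp10 had the largest log2 fold change (-1.97) at means of only 16.9 and 4.23 normalized counts, and Malsu1 rose (0.21). Both calls were lost on leaving out 1 library (Gtpbp10 lost without vehicle replicate 1, 3 or MS023 replicate 3, with an adjusted p up to 0.07 and log2 fold changes from -2.31 to -1.37, and Malsu1 lost without vehicle replicate 1, 2, 3, MS023 replicate 1, 2, 3, GSK3368715 replicate 1 or 3, with an adjusted p up to 0.15 and log2 fold changes from 0.18 to 0.24). Of 17 genes for the expression of mitochondrial DNA and its regulators, Twnk, the helicase, fell in the knockdown (-0.32, lost without shControl replicate 1, 3 or shPrmt1 replicate 3, with an adjusted p up to 0.096 and log2 fold changes from -0.35 to -0.30). Under MS023 Tefm (-0.39, adjusted p = 0.0033), Myc (-0.34) and Ssbp1 (-0.16) fell and Ppargc1a (0.39) and Yy1 (0.26, adjusted p = 0.014) rose. The share of these 17 called lower was thus 5.88% in the knockdown, against 7.17% of all genes tested, and 17.65% under MS023, against 14.1%. On leaving out 1 library, calls were lost for Myc (lost without vehicle replicate 1, 3, MS023 replicate 1, 2 or 3, with an adjusted p up to 0.098 and log2 fold changes from -0.47 to -0.23), Ssbp1 (lost without vehicle replicate 1, 2, 3, MS023 replicate 2, 3, GSK3368715 replicate 1 or 3, with an adjusted p up to 0.16 and log2 fold changes from -0.20 to -0.13) and Ppargc1a (lost without MS023 replicate 1 or 2, with an adjusted p up to 0.057 and log2 fold changes from 0.34 to 0.48).

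The 13 mRNAs encoded by mitochondrial DNA, which the mitochondrial ribosome translates, were divided in the knockdown, where 4 fell and 3 rose. Of all genes tested, 7.17% were called lower and 7.5% higher there. mt-Nd6 (-0.43), mt-Nd4l (-0.36) and mt-Co1 (-0.33) had the largest falls, and mt-Nd3 (0.69), mt-Atp6 (0.34) and mt-Atp8 (0.25) rose. The 6 calls were each lost on leaving out single libraries, with highest adjusted p-values from 0.058 to 0.19, and shControl replicate 1 was among those libraries for all 6. Under MS023 and GSK3368715 none of the 13 was called by limma, edgeR or DESeq2. An unadjusted p under 0.05 was reached by 1 of them under MS023 and by 0 under GSK3368715, and the medians were 0.031 and -0.34. Vehicle replicate 2 and GSK3368715 replicate 3 were low in these mRNAs, and their part in these medians was not tested.

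Other large families gave a comparison. In the knockdown, under MS023 and under GSK3368715, 7.17%, 14.1% and 4.47% of all genes tested were called lower and 7.5%, 13.7% and 5.16% higher. Of the cytosolic ribosomal proteins tested, 3 of 76 fell in the knockdown and 1 rose, 14 of 77 fell and 3 rose under MS023, and 1 fell and 1 rose under GSK3368715, with medians of -0.092, -0.064 and 0.0095. Of the nuclear genes for subunits of oxidative phosphorylation, counted with 2 gene IDs for Atp5o under the inhibitors, 2 of 76 fell in the knockdown, 11 of 77 fell and 2 rose under MS023, and 2 fell under GSK3368715, with medians of -0.060, -0.063 and -0.019. The medians of the mitochondrial ribosomal proteins (-0.072, -0.076 and -0.036) lay close to these in the knockdown and under MS023, and whether the families differ was not tested.

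**Figure D5:**
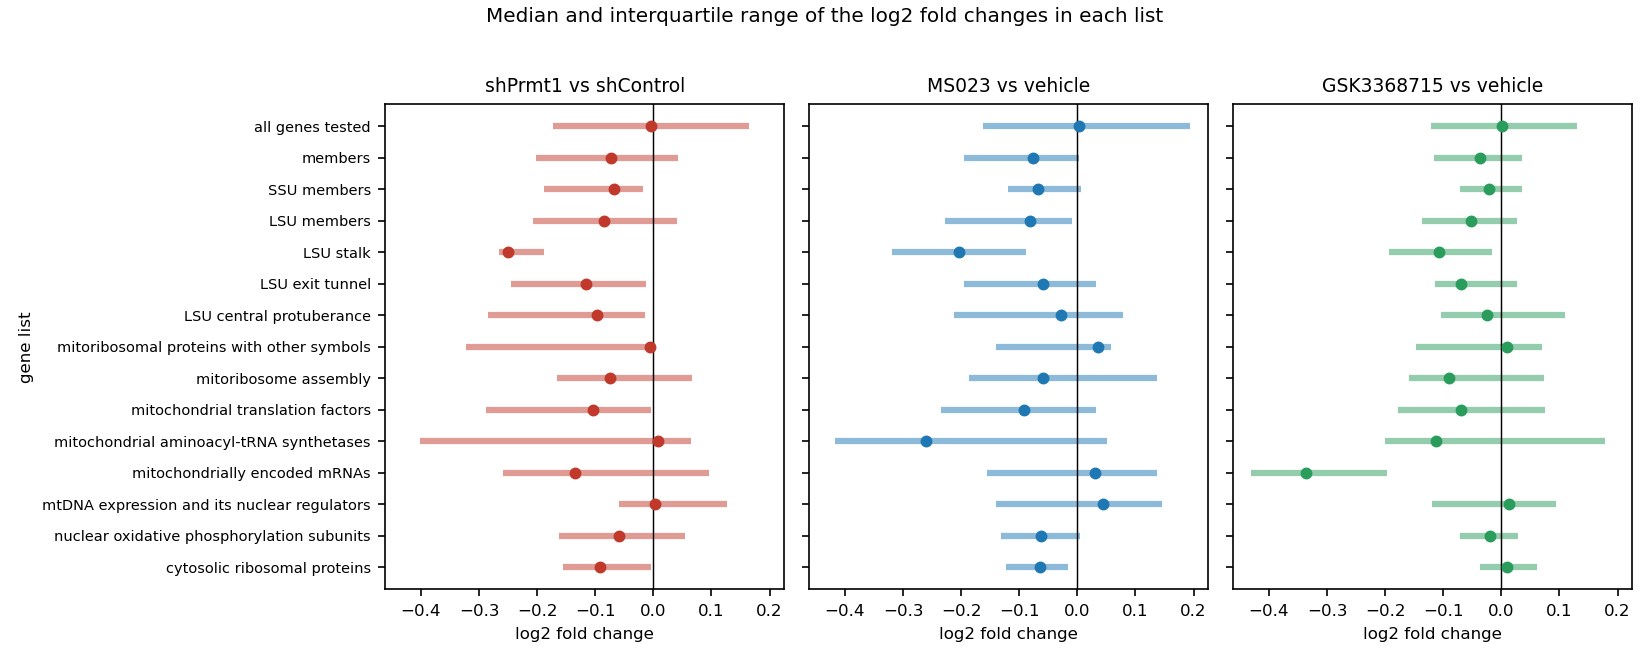
Points are the median log2 fold change of each gene list and bars its interquartile range, in the knockdown and under each inhibitor, with the 78 members in the second row from the top. The medians of the members lie between -0.076 and -0.036 and those of all genes tested close to 0 (-0.0036 in the knockdown), and the largest displacement under MS023 is that of the aminoacyl-tRNA synthetases at -0.26.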

How the data were processed

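RNA was measured in 15 libraries of CT26 cells by poly-A selected, paired-end sequencing (2 × 150 bases). The authors quantified reads with Salmon 1.4.0 on mm10 and normalized with DESeq2, whose version, like the annotation release and strand setting, is not given in the sources used here. The deposited values are a normalized signal, gene counts divided by a size factor per library, in 1 table for each of the 2 experiments. The whole reads behind them were recovered for 100% of values (tolerance 0.05). Deposited tables of the authors' own comparisons (mean, log2 fold change, SE, statistic and p-values) were not used.

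Log2(normalized count + 1) was tested with limma 3.58.1 (R 4.3.3, eBayes with trend) over all genes that reached 10 normalized counts in 3 or more libraries, in a fit of 6 knockdown libraries and a fit of 9 inhibitor libraries, with Benjamini-Hochberg adjustment over all genes and a threshold of 0.05. Fold changes are on this scale, which understates those of low genes. MS023 and GSK3368715 share the vehicle libraries. No depth correction was made beyond the size factors, and intervals come from limma. Only the limma fit of the 6 knockdown libraries was tried on simulated data, with 200 changed genes. The fit of 9 libraries, edgeR and DESeq2 were not tried in this way. Alternatives were edgeR 4.0.16 and DESeq2 1.42.0 on the recovered reads, other filters, pseudocounts and scalings, a replicate block and leaving out each library. edgeR called 896 genes higher and 816 lower in the knockdown, 1820 and 1800 under MS023 and 669 and 573 under GSK3368715. The depth per library was 17284091 to 29233738 reads on genes in the knockdown and 40119305 to 93697833 in the inhibitor experiment.

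Named were, per comparison, up to 12 members called in each direction, members fixed for their role, up to 3 called genes per list and direction, and the 5 mitoribosomal proteins with other symbols. Results of 1 gene of these lists are not reported here. The other members named were chosen after their values were seen. The members and lists were chosen with earlier results of these data known. Positions and overlaps came from GENCODE M21 (34372 of 34432 IDs matched) and promoters from RefSeq.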

Additional observations from a re-analysis of the deposited data

How the results depend on the processing

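The count of members called in the knockdown, 5 by limma, was 3 with no filter on low values, 3 with libraries scaled to the same total, 2 without the mean-variance trend, 8 by DESeq2, 0 at an adjusted p under 0.01 and 0 to 9 on leaving out 1 library (0 without shControl replicate 3, 1 without shControl replicate 1, 2 without shControl replicate 2 and 9 without shPrmt1 replicate 2). The knockdown median, -0.072, was -0.084 scaled to the same upper quartile, -0.040 scaled to the same total, -0.059 by edgeR, -0.059 by DESeq2 and -0.096 to -0.066 on leaving out 1 library. Under MS023 19 members were called, 10 at an adjusted p under 0.01 and 10 to 19 on leaving out 1 library (10 without MS023 replicate 2 and 12 without MS023 replicate 3). Under GSK3368715 8 were called, 1 at an adjusted p under 0.01, and the median ranged from -0.065 to 0.0049 on leaving out 1 library, with the sign turned without vehicle replicate 1 (0.0049). With the replicate number as a replicate block, 11 members were called in the knockdown, 15 under MS023 and 8 under GSK3368715. Whether the numbers pair the libraries is not settled, and the main fits left them out. Deviations of same-numbered knockdown libraries had correlations of 0.061, 0.12 and 0.081. Those of differently numbered shControl and shPrmt1 libraries were all lower, from -0.094 to 0.033. Deviations within a group sum to 0, so positive same-numbered values bring lower differently numbered values with them. The latter are therefore no separate evidence of pairing. For same-numbered inhibitor libraries they were of mixed sign. Values near 0, and that of Mrpl23 in the knockdown (-0.26, SE 0.37), changed sign for single genes, none of them called. On leaving out 1 library these were, with their ranges, in the knockdown Mrpl58 (-0.051 to 0.0026), Mrpl45 (-0.038 to 0.043), Mrpl23 (-0.71 to 0.13), Mrpl12 (-0.081 to 0.049), Mrps36 (-0.0045 to 0.13), Chchd1 (-0.015 to 0.021), Aurkaip1 (-0.021 to 0.13), Dap3 (-0.063 to 0.063); under MS023 Mrpl58 (-0.15 to 0.036), Mrpl44 (-0.035 to 0.0074), Mrps12 (-0.030 to 0.065); under GSK3368715 Mrps18c (-0.074 to 0.0095), Mrpl58 (-0.14 to 0.0395), Mrps15 (-0.078 to 0.028), Mrps22 (-0.041 to 0.088), Mrps12 (-0.022 to 0.15), Mrps16 (-0.051 to 0.061), Dap3 (-0.036 to 0.064). Under other settings they were Mrpl58 (0.0098), Mrpl45 (0.028), Mrpl12 (0.0075), Dap3 (0.027) in the knockdown with scaling to the same total; Mrpl23 (0.11) in the knockdown with summing with overlapping genes and copies; Chchd1 (-0.012) in the knockdown with scaling to the same upper quartile; Dap3 (0.00021) in the knockdown with edgeR; Dap3 (0.00071) in the knockdown with DESeq2; Mrpl44 (0.019) under MS023 with scaling to the same total. The causes were not tested. Summing with overlapping genes and copies was chosen after seeing the data. With 3 libraries a group, the precision is set by the spread between libraries, and an exact permutation test of 3 against 3 cannot go below 0.1.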
